A study of Homo sapiens with 10 samples.

Results

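The ETS transcription factors considered here are 9 genes whose products are placed downstream of fibroblast growth factor (FGF) signalling: ETV1, ETV4, ETV5, ETS1, ETS2, ELK1, ELK3, ELK4 and ETV6. They were taken by name, as the rows of the gene count table whose Ensembl identifier carries one of these symbols. All 9 were found among 55841 counted genes, and all 9 were among the 23552 genes with enough counts to be tested. RNA was sequenced from a human embryonic stem cell line, called HES9 in the labels and WA09 in the study's text (which of these names holds was not resolved), grown on Matrigel in mTESR1, a defined medium without feeder cells. The general population was not sorted (5 libraries). HHH was the fraction sorted for high surface levels of GCTM-2, CD9 and EPCAM, antigens of pluripotent stem cells (5 libraries). Batch 1 held 2 libraries of each population and batch 2 held 3 of each. The deposit's design text also mentions protein kinase C inhibitors, which no label assigns to any of these libraries. The data come from a single line, the general population still contains the cells that HHH was sorted from, and sorting itself cannot be told apart from the identity of the sorted cells. The labels do not say whether replicates were separate cultures, so p-values measure the spread between these libraries, which may be technical.

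Library totals ran from 47242595 to 78503395 counts, and the 9 genes had 388 to 7054 counts per library. Levels are given as CPM, counts scaled to a library of common size. All 8 markers of pluripotent stem cells were expressed in both populations, with a summed level of 4707 to 6217 CPM in general and 4619 to 6295 CPM in HHH. Of these, NANOG rose in HHH by 0.44 on the log2 scale (adjusted p = 0.00572, edgeR) and SOX2 fell by 0.26 (adjusted p = 0.0375). All 9 neural markers had a mean under 1 CPM, and their sum was 2.01 to 4.21 CPM in general and 1.21 to 1.73 CPM in HHH, with ZIC1 and SOX1 lower in HHH among the 3 that could be tested. The 9 mesoderm and endoderm markers all had a mean under 1 CPM as well, with sums of 1.00 to 1.58 and 1.02 to 2.61 CPM. Within batch 1, however, FOXA2 had a mean of 1.52 CPM in HHH and 0.506 CPM in general. In batch 2 its means were 0.080 and 0.029 CPM. TBXT, with too few counts to be tested, went the other way, at 0.102 CPM in HHH and 0.350 CPM in general. Its HHH libraries lay below the general ones in both batches. MIXL1 had 0.494 and 0.397 CPM, with HHH above general in both batches, and did not pass (edgeR adjusted p = 0.363). Summed levels in general and HHH were 128 to 192 and 142 to 164 CPM for endothelial and blood markers, 271 to 290 and 296 to 352 CPM for stromal markers, and 5.60 to 10.5 and 3.43 to 5.51 CPM for trophoblast and amnion markers. These sums came mostly from KDR, COL1A2, THY1 and KRT7, while PTPRC, COL3A1 and GATA3 had means under 0.1 CPM in both populations, and DCN and CGA had no count in any general library. Within the stromal list COL1A1 fell by 0.94 (edgeR adjusted p = 0.00334) and THY1 rose by 0.61 (adjusted p = 0.000452), and KRT7 fell by 0.76 (adjusted p = 0.00149) and TEK by 0.31 (adjusted p = 0.0292). The part that other cell types had in the results below was not tested. In bulk RNA, fewer cells that express a gene and less of its RNA per cell cannot be told apart.

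ETS factors share a DNA-binding domain that reads a GGA core. In the FGF pathway, a receptor tyrosine kinase signals through RAS, RAF and MEK to the kinase ERK, which phosphorylates several ETS proteins. ETV1, ETV4 and ETV5 form the PEA3 subfamily, whose transcription is itself raised by ERK signalling and held down by the repressor capicua (CIC). ELK1, ELK3 and ELK4 are ternary complex factors, which bind DNA beside serum response factor (SRF) and become activators once ERK phosphorylates them. ETS1 and ETS2 carry an ERK site beside their Pointed domain, and ETV6 is a repressor of the family. FGF2 in the medium supports self-renewal of human pluripotent stem cells.

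The 3 genes that were higher in HHH with both batches together were ETV4, ETV5 and ELK3. None of the 9 was lower. In the fit over all genes (edgeR quasi-likelihood test with a batch term, Benjamini-Hochberg adjusted p under 0.05), 1.94% of all tested genes were higher and 3.89% were lower in HHH. ETV5 alone also exceeded a 1.5-fold change, which 0.637% of all tested genes did upwards. ETV4 fell just short of it, at a fold that rounds to 1.5. The median log2 fold change was 0.22 over the 9 genes and 0.0156 over all genes tested. HHH libraries lay above the highest general library in both batches for ETV4, ETV5 and ELK3, against 3.93% of all tested genes. Such shares were not counted for separation in 1 batch only or for HHH below general, which are given below for single genes.

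**Figure D1:**
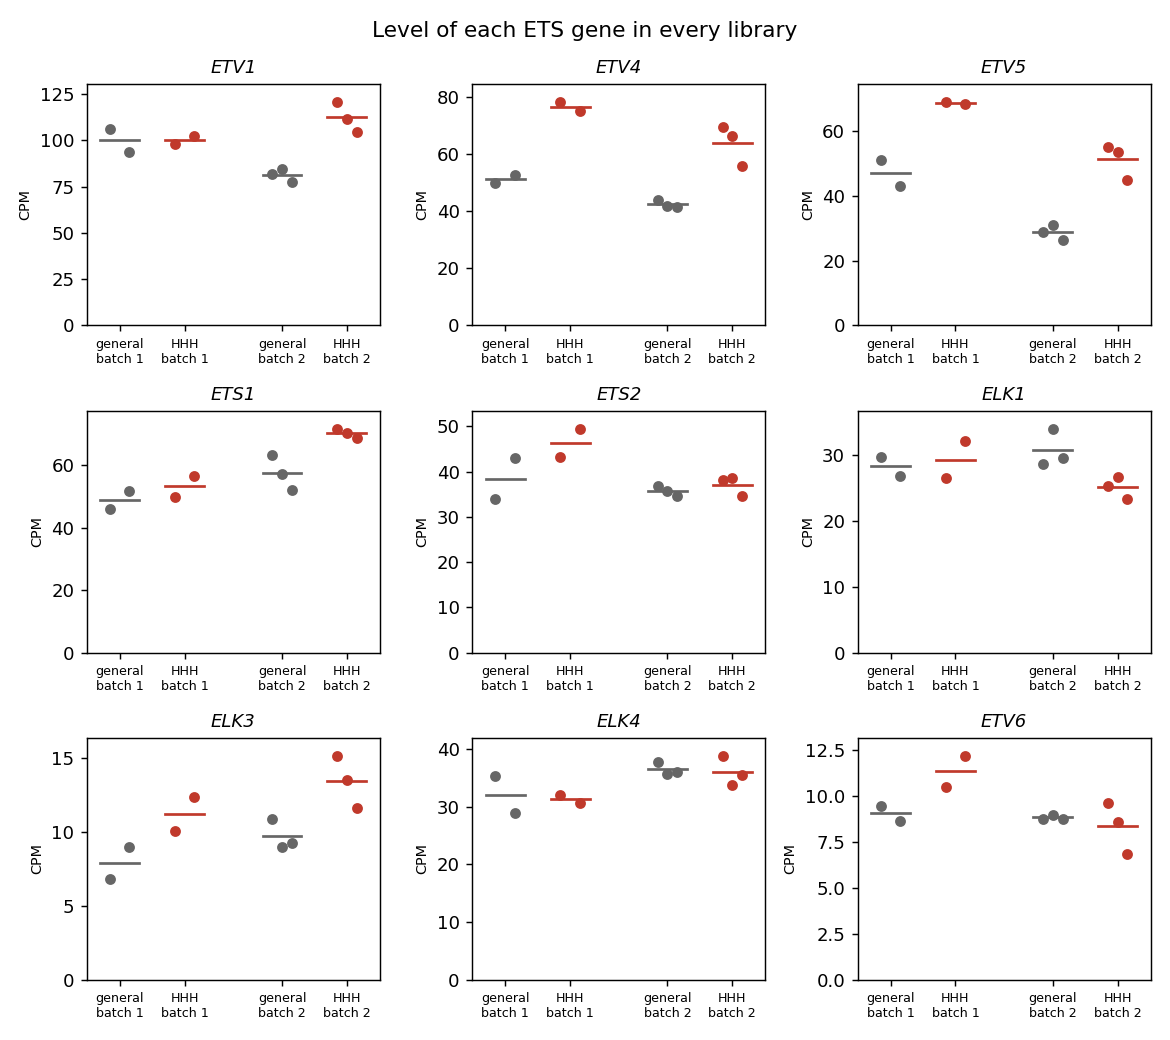
Level in CPM (y axis, from 0) of each of the 9 ETS genes in every library, with general libraries in grey and HHH libraries in red, by batch; bars are group means. For ETV4, ETV5 and ELK3 the HHH points lie above the general points of the same batch in both batches, and ETV1 shows this separation in batch 2 only.

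ETV4 (ENSG00000175832, chr17:43527844-43579620 on the minus strand, GRCh38) is the PEA3 factor first described as an adenovirus E1A enhancer-binding protein. Its general libraries had 49.98 and 52.8 CPM in batch 1 and 44.01, 42.0 and 41.6 CPM in batch 2. Its HHH libraries had 78.5 and 75.0 CPM in batch 1 and 69.4, 66.6 and 55.9 CPM in batch 2. Every HHH library was thus above every general library, also across batches. Its mean was 46.1 ± 5.03 CPM over the general libraries and 69.1 ± 8.71 CPM over those of HHH (SD, n = 5 each). ETV4 rose by 0.58 on the log2 scale (SE 0.071, 95% interval 0.43 to 0.74, edgeR adjusted p = 0.000174). The change was nearly the same in each batch, 0.58 (SE 0.11, adjusted p = 0.0133) in batch 1 and 0.59 (SE 0.089, adjusted p = 0.000995) in batch 2.

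ETV5 (ENSG00000244405, chr3:186046314-186110318, minus strand) is the PEA3 factor also called ERM. General libraries had 51.1 and 43.0 CPM in batch 1 and 28.7, 31.2 and 26.5 CPM in batch 2. HHH libraries had 69.2 and 68.4 CPM in batch 1 and 55.3, 53.7 and 45.0 CPM in batch 2. The populations did not overlap within a batch, but the lowest HHH library of batch 2 was below the highest general library of batch 1. ETV5 rose by 0.72 (SE 0.088, 95% interval 0.53 to 0.91, 1.65-fold, edgeR adjusted p = 0.000187), the largest change of the 9 genes. It rose by 0.55 in batch 1 (SE 0.12, adjusted p = 0.0311) and by 0.83 in batch 2 (SE 0.10, adjusted p = 0.000149), and the difference between batches, 0.29 (SE 0.16), did not pass (adjusted p = 0.337). Without a batch term in the fit its adjusted p was 0.172. A share of 2.84% of its exon length overlaps DGKG, a gene on the same strand.

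ETV1 (ENSG00000006468, chr7:13891229-13991425, minus strand), the remaining PEA3 factor, also called ER81, had the highest CPM of the 9 genes. General libraries had 106 and 94.0 CPM in batch 1 and 82.0, 84.6 and 77.3 CPM in batch 2, and HHH libraries had 98.1 and 103 CPM in batch 1 and 121, 112 and 105 CPM in batch 2. HHH lay above general in batch 2 and within the range of general in batch 1. With both batches together the difference was 0.28 (SE 0.091, 95% interval 0.088 to 0.48) and did not pass (edgeR adjusted p = 0.0880). A fit that paired libraries of the same number (the replicate block) gave 0.37, which passed (adjusted p = 0.0396), so that 4 of the 9 genes were higher in that fit. The share of all tested genes that passed in it was not counted. The block fit rests on the 3 pairs of batch 2 and 1 pair of batch 1 (replicate 2, 94.0 and 98.1 CPM), since general replicate 1 and HHH replicate 3 of batch 1 have no partner. Without the block, ETV1 also passed when the fit left out general batch 1 replicate 1 (adjusted p = 0.0299) or HHH batch 1 replicate 3 (adjusted p = 0.0496). Of 13 alternative fits to all libraries, ETV1 passed in 3, not all of them with the block. In batch 2 ETV1 rose by 0.47 (SE 0.086, 1.38-fold, adjusted p = 0.00408), and in batch 1 the difference was 0.0041 (SE 0.10, adjusted p = 0.990). The difference between these values, 0.46 (SE 0.14, unadjusted p = 0.00398), did not pass over all genes with edgeR (adjusted p = 0.117) and passed with DESeq2 (0.48, adjusted p = 0.0314). Among all tested genes, 0.777% had a difference between batches, in either direction, that passed with edgeR. Of these, 13 were in the direction of ETV1 and 170 in the opposite one.

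ELK3 (ENSG00000111145, chr12:96194375-96269824, plus strand), a ternary complex factor also called Net that represses until ERK phosphorylates it, was expressed at a lower level. General libraries had 6.80 and 9.01 CPM in batch 1 and 10.9, 8.998 and 9.28 CPM in batch 2, and HHH libraries had 10.05 and 12.4 CPM in batch 1 and 15.2, 13.5 and 11.6 CPM in batch 2. The populations did not overlap within either batch. ELK3 rose by 0.48 (SE 0.11, 95% interval 0.25 to 0.71, 1.40-fold, edgeR adjusted p = 0.0169). The call was lost without HHH batch 2 replicate 1 (adjusted p = 0.0631), general batch 2 replicate 2 (0.0515) or general batch 2 replicate 3 (0.0550). It was also lost without a batch term (adjusted p = 0.225), under scaling by library size only (0.0762) and with limma on the deposited log2 values (0.175). By batch the change was 0.50 (SE 0.17, adjusted p = 0.150) in batch 1 and 0.47 (SE 0.14, adjusted p = 0.0476) in batch 2, and the batch 2 call was lost without any of 5 of its 6 libraries, the exception being HHH replicate 3 (adjusted p 0.0637 to 0.184 without one of the 5). An antisense gene, ENSG00000258177, overlaps 4.50% of its exon length, and its reads could be counted with ELK3 if strand was not used.

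The other ternary complex factors did not pass. ELK1 (ENSG00000126767, chrX:47635521-47650604, minus strand), the best-studied ERK-activated factor of this group, had 26.8 to 33.9 CPM in general and 23.2 to 32.1 CPM in HHH, with a log2 difference of -0.16 (SE 0.092, 95% interval -0.35 to 0.042, edgeR adjusted p = 0.358). In batch 2 its 3 HHH libraries (25.3, 26.6 and 23.2 CPM) lay below the 3 general ones (28.5, 33.9 and 29.5 CPM). That difference was -0.29 (SE 0.10, edgeR adjusted p = 0.0830, or 0.0492 with batch 2 fitted alone). The batch 1 libraries overlapped, and the share of all tested genes that separated in batch 2 was not counted. ELK4 (ENSG00000158711, chr1:205597556-205632011, minus strand), also called SAP1, had 28.9 to 37.8 CPM in general and 30.7 to 38.8 CPM in HHH. Its log2 difference was -0.025 (SE 0.073, 95% interval -0.18 to 0.13, adjusted p = 0.882). The 3 ELK genes therefore had different values in the same libraries, with only ELK3 past the threshold, and differences between these genes were not tested.

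ETS1 (ENSG00000134954, chr11:128458761-128587558, minus strand), the founding member of the family, had 46.1 and 51.6 CPM in general and 49.9 and 56.6 CPM in HHH in batch 1. In batch 2 it had 63.2, 57.3 and 52.0 CPM in general and 71.7, 70.4 and 68.6 CPM in HHH. HHH was above general without overlap in batch 2 but not in batch 1, and each of the 5 HHH libraries exceeded the general mean of its batch. The log2 difference, 0.22 (SE 0.075, 95% interval 0.062 to 0.38), did not pass (edgeR adjusted p = 0.103). In batch 2 it was 0.29 (SE 0.090, adjusted p = 0.0583 with edgeR and 0.0281 with DESeq2). Its paralogue ETS2 (ENSG00000157557, chr21:38805183-38824955, plus strand) had 33.9 to 43.0 CPM in general and 34.6 to 49.5 CPM in HHH, with a log2 difference of 0.14 (SE 0.083, 95% interval -0.035 to 0.32, adjusted p = 0.348). ETV6 (ENSG00000139083, chr12:11649674-11895377, plus strand), a repressor also called TEL, had 8.63 to 9.45 CPM in general and 6.85 to 12.2 CPM in HHH. Its log2 difference was 0.083 (SE 0.11, 95% interval -0.16 to 0.32, adjusted p = 0.719), with 10.5 and 12.2 CPM in the HHH libraries of batch 1 and 9.63, 8.57 and 6.85 CPM in those of batch 2.

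**Figure D2:**
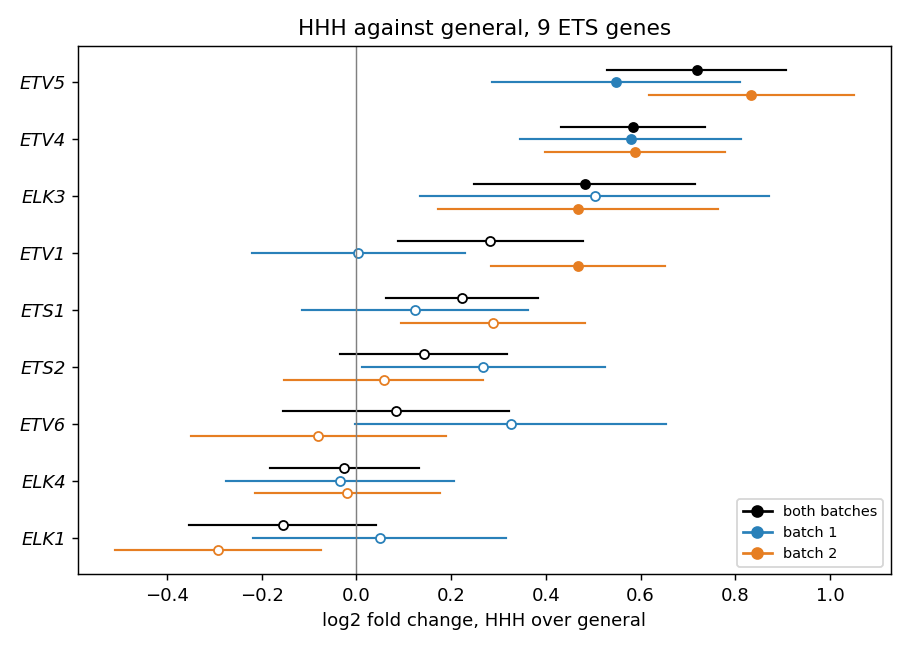
Log2 fold change of HHH over general (x axis) for the 9 ETS genes, with both batches together (black), batch 1 (blue) and batch 2 (orange); lines are 95% intervals and filled points passed at an adjusted p under 0.05. ETV5 and ETV4 are filled in all 3 fits, ELK3 with both batches and in batch 2, and ETV1 in batch 2 only.

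By batch, 2 of the 9 genes were higher in HHH in batch 1, ETV4 and ETV5, where 1.12% of all tested genes were. In batch 2 there were 4, ETV1, ETV4, ETV5 and ELK3, where 3.83% of all tested genes were. None was lower in either batch in this fit, though with batch 2 fitted alone 6 passed, ETS1 higher (0.28, adjusted p = 0.0482) and ELK1 lower (-0.30, adjusted p = 0.0492) in addition. Shares of all tested genes were not counted for batch 2 fitted alone or for DESeq2. No gene's difference between batches passed with edgeR (1 of 9 had an adjusted p under 0.05 with DESeq2, which was ETV1). The unadjusted p of that difference was under 0.05 for 1 gene with edgeR as well, again ETV1. The batch 1 calls rest on 2 libraries a side. ETV4 lost its call without general replicate 1 (adjusted p = 0.151) or HHH replicate 2 (0.0740) of batch 1, and ETV5 lost it without any 1 of the 4 libraries of batch 1 (0.0623 to 0.124) or without general batch 2 replicate 1 (0.0539). With batch 1 fitted alone neither passed (adjusted p = 0.0646 and 0.119). Within batch 2, HHH replicate 3 had the lowest HHH value of 8 of the 9 genes, all except ELK4. Without that library the changes of ETV4 and ETV5 with both batches together were 0.63 and 0.75.

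Between batches, with both populations in one fit, 5 of the 9 genes differed, a share close to that of all genes: 2 were higher and 3 lower in batch 2, where 24.0% of all tested genes were higher and 23.9% lower. ETV1, ELK1, ELK3 and ETV6 did not pass. In batch 2, ETV5 was lower by 0.57 on the log2 scale (SE 0.089, edgeR adjusted p = 0.000155), ETS1 was higher by 0.32 (SE 0.077, adjusted p = 0.00399) and ELK4 was higher by 0.19 (adjusted p = 0.0462). ETV4 was lower by 0.27 (SE 0.072, adjusted p = 0.00703) and ETS2 by 0.22 (adjusted p = 0.0470), but with library size as the only scaling their differences were 0.068 and 0.11, in the opposite direction. That scaling moved the median of all genes between batches to 0.34, from 0.0036. Small nuclear and nucleolar RNAs took 2.71 to 4.97% of the counts in batch 1 and 0.418 to 0.727% in batch 2. Their part in the batch differences was not tested alone. When they and the mitochondrial genes were left out together, ELK4 did not pass (edgeR adjusted p = 0.0566). The ETS2 call held in 1 of 10 fits without 1 library, the one without general batch 1 replicate 1. The ELK4 call held in 3 of 10, those without general batch 1 replicate 1, HHH batch 2 replicate 3 or general batch 2 replicate 3.

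Per length of annotated exons, in CPM per kb, ETV4 had the highest level at 16.4 ± 3.94 (SD, n = 10 libraries). ETV1 followed at 10.2 ± 1.44, then ELK1 at 8.30 ± 0.945, ETS1 at 8.22 ± 1.29, ETV5 at 8.18 ± 2.65 and ETS2 at 7.79 ± 1.00. ELK4 was at 2.83 ± 0.255, ELK3 at 2.32 ± 0.532 and ETV6 at 1.28 ± 0.192. Among neighbours in this order only ETS2 and ELK4 had ranges that did not overlap over the 10 libraries. ETV4 was above ETV1, ETS2 above ELK4 and ELK3 above ETV6 within each of the 10 libraries, whereas ELK1, ETS1, ETV5 and ETS2 followed this order in only 6 of 10 libraries for each pair of neighbours. The lengths implied by the authors' log2 RPKM left ETV4 and ETV1 first and moved ELK1 from rank 3 to 6. They placed ETV6 above ELK3, at 2.81 CPM per kb, because the length they imply for ETV6 is 3.28 kb and the annotated exons sum to 7.23 kb. Splitting by population, ETV4 had 13.1 ± 1.43 CPM per kb in general and 19.6 ± 2.48 in HHH (SD, n = 5 each), while ETV5 had 6.26 ± 1.82 and 10.1 ± 1.79. The order changed with the population, ETV5 being at rank 6 in general and 3 in HHH, and ELK1, at 8.74 and 7.86 CPM per kb, at rank 3 in general and 6 in HHH.

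**Figure D3:**
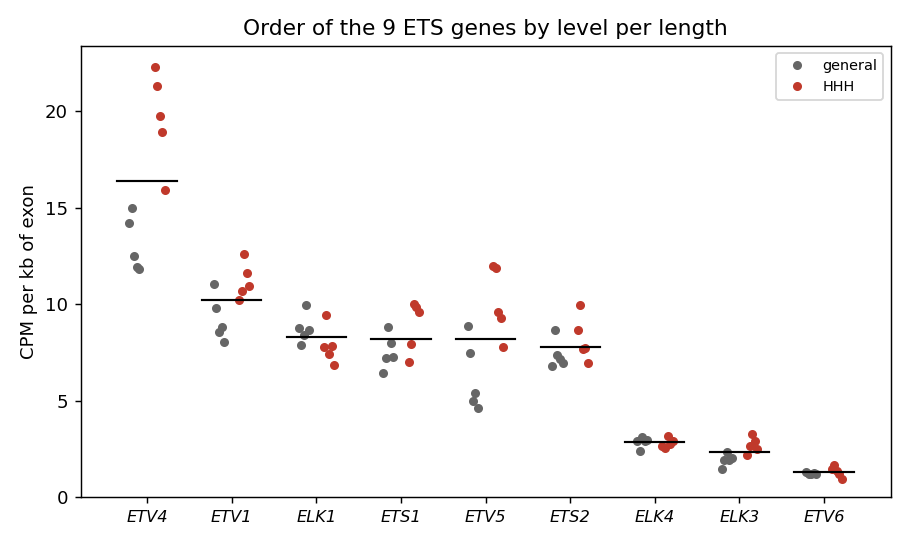
Level per length (y axis, CPM per kb of exon, from 0) of the 9 ETS genes in decreasing order of the mean over 10 libraries (black bar), with 5 general libraries in grey and 5 HHH libraries in red. ETV4 is highest at a mean of 16.4, ETV1 to ETS2 lie between 7.79 and 10.2, and ELK4, ELK3 and ETV6 lie below 3.

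Promoter windows from RefSeq (GRCh38.p14, 250 bases before to 50 after a start) were held for 6 of the 9 genes, ETV1, ETS2, ELK1, ELK3, ELK4 and ETV6, in 13 windows. They were searched on both strands for the octamers bound by CIC (TGAATGAA, TGAATGGA, TCAATGAA and TCAATGGA), the ETS core CCGGAAG, the AP-1 site TGANTCA and the CArG box of SRF. Overlapping matches of different motifs were all counted. Of 34943 windows in the table, 3.75% held a CIC octamer, 10.2% the ETS core, 7.72% the AP-1 site and 1.3% a CArG box. Among the 13 windows, 1 of the 6 windows of ETV1 held a CIC octamer and the window of ELK4 held an ETS core, and none held the other motifs. The 250 bases before the start are shown for these windows and for the first start of ELK3, the promoter at hand for a gene that was higher in HHH. Capitals mark the CIC octamer in ETV1 and the ETS core in ELK4.
ETV1, chr7:13991426-13991675, minus strand: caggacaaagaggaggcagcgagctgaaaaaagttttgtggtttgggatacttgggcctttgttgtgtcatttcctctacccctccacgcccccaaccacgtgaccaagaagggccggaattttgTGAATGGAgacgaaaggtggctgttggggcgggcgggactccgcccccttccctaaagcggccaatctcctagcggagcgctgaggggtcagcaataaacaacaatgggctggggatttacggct
ELK4, chr1:205632012-205632261, minus strand: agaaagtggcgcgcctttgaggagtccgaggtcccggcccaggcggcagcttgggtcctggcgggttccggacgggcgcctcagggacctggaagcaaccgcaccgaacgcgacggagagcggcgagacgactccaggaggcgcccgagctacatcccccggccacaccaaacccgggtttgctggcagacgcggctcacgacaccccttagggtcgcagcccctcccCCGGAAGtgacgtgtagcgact
ELK3, chr12:96194125-96194374, plus strand: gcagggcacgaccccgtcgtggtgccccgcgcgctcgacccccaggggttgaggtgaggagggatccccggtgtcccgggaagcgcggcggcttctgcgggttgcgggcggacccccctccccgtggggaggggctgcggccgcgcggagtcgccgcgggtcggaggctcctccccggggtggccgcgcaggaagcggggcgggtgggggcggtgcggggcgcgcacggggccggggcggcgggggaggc
The octamer of ETV1 begins 125 bases before the start and the ETS core of ELK4 begins 22 bases before it. A match of letters is a description of the window and says nothing about binding in these cells.

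The remaining ETS family comprised 19 further genes, of which 18 were counted and 11 tested (SPIB was not analysed here). Of the 11, none was higher and 3 were lower in HHH, with a median log2 fold change of 0.00085. The shares of all tested genes were 1.94% higher and 3.89% lower. ELF3, an epithelial ETS factor, fell by 0.61 (SE 0.11, edgeR adjusted p = 0.00304) from 10.1 ± 0.760 to 6.64 ± 0.915 CPM (SD, n = 5 each), without overlap in either batch. ELF4 fell by 0.81 (SE 0.19, adjusted p = 0.0232) and ETV7, the closest relative of ETV6, by 1.32 (SE 0.35, adjusted p = 0.0375), both with means under 1 CPM. The highest of those that did not pass were ELF2 at 63.0 CPM (-0.057), GABPA at 37.9 CPM (0.0051) and ERF, a repressor that ERK expels from the nucleus, at 29.5 CPM (0.00085). Of the 18 genes, 12 had means under 1 CPM, among them the blood and endothelial factors SPI1, FLI1 and ERG. SPIC had no count in any library, where 3 counts, the limit that a count of 0 allows, stand for 0.0459 to 0.0686 CPM and cover counting error only.

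Upstream of the ETS factors, 3 of 4 FGF receptor genes were lower in HHH and none was higher, with a median of -0.48. Among all tested genes, 3.89% were lower and 1.94% higher. FGFR3 fell by 1.54 (SE 0.13, edgeR adjusted p = 7.69e-06), with 29.9 to 59.2 CPM in general and 9.68 to 17.2 CPM in HHH. FGFR2 fell by 0.48 (SE 0.080, adjusted p = 0.00222), from 112 ± 45.3 to 79.8 ± 29.9 CPM (SD, n = 5 each), the spread being mostly between batches. FGFR1, the most abundant receptor, fell by 0.47 (SE 0.12, adjusted p = 0.0328), from 363 ± 105 to 253 ± 27.6 CPM, with a difference of -0.055 in batch 1 (adjusted p = 0.862) and -0.75 in batch 2 (adjusted p = 0.000384). The difference between these batch values, -0.69 (SE 0.16), did not pass (edgeR adjusted p = 0.0649). FGFR4 differed by -0.16 (adjusted p = 0.236). None of 20 genes of the cascade from the receptor adaptor FRS2 through RAS and RAF to ERK and its RSK kinases passed, with a median of -0.019. With both batches together their log2 differences lay between -0.14 for GAB1 and 0.16 for HRAS. Those with the highest levels included NRAS (210 CPM, 0.14) and PTPN11 (185 CPM, 0.039). By batch the sign could change, MAP2K2 being at 0.41 in batch 1 and -0.16 in batch 2, and KSR1 at 0.23 and -0.32. These differences between batches did not pass (edgeR adjusted p = 0.0720 and 0.137).

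None of 11 partners and regulators of ETS proteins passed with both batches together (median -0.083). The most abundant were COP1, a ubiquitin ligase that marks PEA3 factors for degradation (73.0 CPM, 0.042), the coactivator EP300 (70.8 CPM, -0.13) and SRF (49.6 CPM, 0.041). CIC had 22.1 to 43.6 CPM in general and 21.9 to 27.8 CPM in HHH, a difference of -0.32 (SE 0.11, edgeR adjusted p = 0.120) that passed with the replicate block (adjusted p = 0.0378). In batch 2 alone CIC fell by 0.56 (adjusted p = 0.00584), CREBBP by 0.42 (adjusted p = 0.0318) and MRTFA, an SRF coactivator, by 0.38 (adjusted p = 0.0258). In batch 1 they differed by 0.031, 0.33 and 0.37, none past the threshold. The difference between batches passed for MRTFA (edgeR adjusted p = 0.0404) but not for CIC (0.117) or CREBBP (0.0700).

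Genes that ERK signalling is known to raise were mixed. Of 8, 3 rose in HHH and 1 fell, with a median of 0.24, where 1.94% of all tested genes rose and 3.89% fell. These lists were written with earlier results of these data known, so their directions are not independent evidence. DUSP6, the phosphatase that inactivates ERK, had 95.9 to 213 CPM in general and 207 to 354 CPM in HHH and rose by 0.94 (SE 0.082, 1.92-fold, edgeR adjusted p = 8.14e-06), without overlap within a batch. SPRY4 and SPRY2, feedback inhibitors of receptor signalling, rose by 0.70 (SE 0.11, adjusted p = 0.00107) and 0.44 (SE 0.087, adjusted p = 0.00746). EPHA4, an ephrin receptor, fell by 1.54 (SE 0.13, adjusted p = 6.78e-06), from 34.3 ± 8.22 to 11.7 ± 0.638 CPM (SD, n = 5 each). CCND1 (135 CPM, 0.011), PHLDA1 (70.2 CPM, 0.26) and EPHA2 (26.5 CPM, 0.21) did not pass.

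Of 6 immediate early genes that SRF and the ELK factors are known to drive, none rose and 3 fell, with a median of -0.74. Of all tested genes, 1.94% rose and 3.89% fell. The 3 that fell were all EGR zinc finger genes. EGR1 had 5.91 to 19.8 CPM in general and 3.45 to 6.21 CPM in HHH and fell by 1.19 (SE 0.15, edgeR adjusted p = 0.000288). EGR2 fell by 1.12 (SE 0.17, adjusted p = 0.000940) and EGR3 by 1.95 (SE 0.30, adjusted p = 0.00116), from means of 1.29 and 0.545 CPM in general. For each of the 3, HHH was below general without overlap in both batches, and the share of all tested genes that did so was not counted. MCL1 (350 CPM, 0.094), IER2 (63.6 CPM, 0.32, adjusted p = 0.0556) and FOS (17.0 CPM, -0.36) did not pass, and IER2 rose in batch 1 (0.60, adjusted p = 0.00897). ELK3 was thus higher and these EGR genes lower in HHH, and links between them were not tested. Of the 6 genes, 4 had a negative and 2 a positive log2 difference. The HHH libraries of IER2 lay above general in both batches without overlap, as did those of 3.93% of all tested genes.

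**Figure D4:**
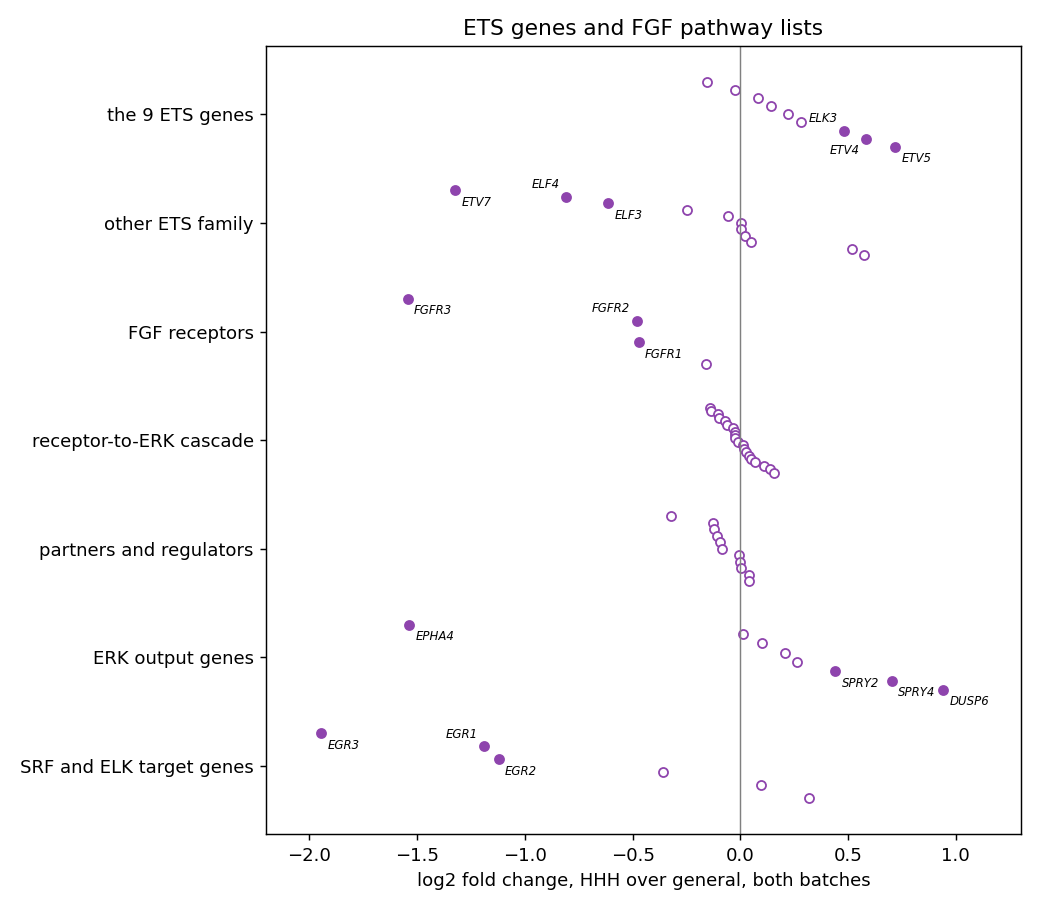
Log2 fold change of HHH over general with both batches together (x axis) for the tested genes of each list (rows); each point is a gene, and filled, named points passed at an adjusted p under 0.05. The calls among the 9 ETS genes lie to the right of 0, those among FGF receptors, other ETS genes and SRF and ELK target genes lie to the left, and the ERK output genes have 3 to the right and 1 to the left.

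The sort antigens measured as RNA were CD9 and EPCAM. EPCAM rose by 0.41 (SE 0.081, edgeR adjusted p = 0.00645), and CD9 differed by 0.29 (SE 0.12, adjusted p = 0.195, or 0.0186 with the replicate block). The changes of ETV5 and ETV4 can be set beside that of EPCAM, an antigen used for the sort, at 0.72 and 0.58 against 0.41.

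For each of the 9 genes, the protein-coding genes most like it were sought among 9530 genes whose mean reached 10 CPM (9531 for ETV6), by Pearson's r of log2 CPM over the 10 libraries after removing the mean of each batch. The libraries share their population difference and their library composition, so r is a description of these libraries. The genes nearest to ETV4 were ERRFI1, an inhibitor of EGF receptor signalling (r = 0.994), KRT8, a keratin of simple epithelia (0.986), and VASH2 (0.986). Those nearest to ETV5 were DUSP6 (0.983), PLEKHA2 (0.980) and RBM47, an RNA-binding protein (0.976). ERRFI1, KRT8, VASH2, PLEKHA2 and RBM47 were each higher in HHH, by 0.46, 0.36, 0.32, 0.60 and 0.57 on the log2 scale (edgeR adjusted p 0.000174 to 0.00545). Since r keeps the population difference, these changes are not independent of how the genes were picked. The genes nearest to ETV1 were NEDD9 (0.973), PPM1A (0.966) and ZKSCAN5 (0.954), none of which passed between populations. ELK3 was followed most closely by E2F3 (0.967), TNIK (0.965) and JAK1, a cytokine receptor kinase (0.963), of which TNIK rose by 0.52 (adjusted p = 0.0179). ETS1 was nearest to SUDS3 (0.953), ETS2 to TRAF2 (0.969), ELK1 to EEF1A2 (0.983), ETV6 to ZNRF3 (0.984) and ELK4 to NHLRC2 (0.891), the lowest of these values.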

How the data were processed

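RNA was measured in 10 libraries, 5 general and 5 HHH, grouped by population, batch and replicate number as their titles give them. The authors deposited fragment counts per Ensembl gene without normalization, and the submitters' notes name the build GRCh37, CASAVA 1.8.2, R 3.2.2 and limma 3.26.9. The aligner and counting tool are not given in the sources used here. A second deposited table holds log2 RPKM values after TMM scaling, used only as an alternative and treated as a score on the log2 scale, since over 27641 genes its batch means were equal to within 9.2e-14, so a batch term had been subtracted before the authors deposited it.

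Identifiers were matched to GENCODE 44 for symbols, lengths and GRCh38 coordinates, and 88.5% matched. Genes were kept by filterByExpr (minimum count 10), scaled by TMM and fitted with edgeR 4.0.16 in R 4.3.3 by the two-sided quasi-likelihood test with batch and population as terms. Batch-wise effects and their difference came from a fit with 4 groups. P-values were adjusted over all 23552 tested genes, and a standard error was the absolute log2 fold change over the root of F. For CPM, TMM-scaled totals were used, and 1 count stood for 0.0153 to 0.0229 CPM. The fits were tested on counts simulated from the same model, which cannot show where that model fails for these libraries.

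The 9 genes and all lists were chosen with earlier results of these data known. Named were all 9 genes, list genes that passed with both batches together, up to 3 others per list with the highest mean CPM, and the 3 genes most like each of the 9. CIC, CREBBP, MRTFA, FGFR4, GAB1, HRAS, MAP2K2, KSR1, the ETS genes under 1 CPM and the marker genes were named outside that rule, after their values were seen. A further gene that the rule names is not reported here. Alternatives were other scalings and filters, DESeq2 1.42.0, limma 3.58.1, a GC trend removed, the replicate block and each library left out.

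Replicate numbers were taken to pair libraries in the replicate block only, and the main fit did not use them. The deviations of same-numbered libraries from their group means correlated at 0.113 in batch 1 and at 0.239, 0.143 and 0.113 in batch 2, all over 0.1. With 2 libraries a group, the batch 1 value can take only 1 size, and general replicate 1 with HHH replicate 3 gave the same 0.113, so only batch 2 bears on the pairing.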

Additional observations from a re-analysis of the deposited data

Results flagged for a closer look

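The effect of HHH on MRTFA, an SRF coactivator, differed between batches by -0.756 on the log2 scale (edgeR adjusted p = 0.0404 over all genes), with a difference of 0.37 in batch 1 and a fall of 0.38 in batch 2. For ELK4, 1 of the 5 general libraries stood apart, replicate 2 of batch 1 at 28.9 CPM, while the other 4 had 35.3 to 37.8 CPM. Its gap to the next library was 0.712 of the range, and chance puts about 1 in 20 groups past such a limit.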

How the results depend on the processing

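The directions and calls of ETV4 and ETV5 with both batches together held when each library was left out (0.55 to 0.63 and 0.67 to 0.79). The number of the 9 genes that passed with both batches together was 3. It was 1 without a batch term (ETV4), 1 with a fold over 1.5 required (ETV5), 4 with the replicate block, which changed no other member's call than that of ETV1, and 2 to 4 on leaving out a library. In batch 1 it fell from 2 to 0 with that batch fitted alone and to between 0 and 2 on leaving out a library. In batch 2 it was 4, 3 to 5 on leaving out a library, 5 with DESeq2 and 6 with that batch fitted alone. Between batches it was 5, 3 to 5 on leaving out a library and 4 to 6 under the other settings. The number of genes whose effect differed between batches was 0 with edgeR, on leaving out any library too, and 1 with DESeq2 (ETV1). Among these alternatives, the share of all tested genes was counted only for the 1.5-fold limit. The cause of these shifts in number was not tested. The sign also changed in some alternatives, among members that had passed for ETV4 and ETS2 between batches and otherwise for members that had not passed. With the replicate block, ELK4 with both batches together was at 0.020. ETV6 was at -0.012 with the GC trend removed together with the replicate block and at -0.066 with limma on the deposited log2 values. ETV1 in batch 1 was at -0.0083 with DESeq2 and at -0.0017 with that batch alone. Between batches with library size only, the values were 0.27 for ETV1, 0.068 for ETV4, 0.11 for ETS2, 0.28 for ELK1 and 0.095 for ETV6, each against a median of 0.34 over all genes. The difference of the HHH effect between batches was then -0.10 for ETV4 and -0.11 for ELK4. It was 0.0027 for ELK3 without a filter, -0.011 for ETV4 and -0.0056 for ELK4 with the filter on 1 CPM, and -0.19 for ELK4 with the GC trend removed. On leaving out each library, signs changed within these ranges: for ELK4 -0.064 to 0.024 with both batches together, -0.17 to 0.12 in batch 1 and -0.075 to 0.027 in batch 2, for ETV1 -0.080 to 0.095 and for ELK1 -0.096 to 0.18 in batch 1, and for ETV6 -0.19 to 0.040 in batch 2. Between batches they were -0.14 to 0.013 for ETV1 and -0.12 to 0.039 for ELK1, and for the difference of the HHH effect -0.053 to 0.094 for ETV4, -0.25 to 0.16 for ELK3 and -0.13 to 0.15 for ELK4. A fit without 1 batch 1 library leaves 1 sample in its group, assumed to vary like the others.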
